A study of Mus musculus with 2 samples.

Results

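The Wnt, R-spondin and Hgf signals that liver endothelial and stellate cells send to their neighbours were examined at 8 genes, chosen by name: the ligands Wnt2, Wnt9b, Rspo1, Rspo3 and Hgf and the receptors Fzd1, Fzd4 and Lrp5, out of 21887 protein-coding genes. Accessibility was the number of unique single-nucleus ATAC fragments over each gene body with 2 kb on both sides, and in 1 kb tiles along it, in barcodes that the authors' pipeline had called cells. The material came from a Spta sph/sph mouse and a Spta wt/wt littermate, untreated males of 8 to 10 weeks, with 1 library per genotype. The sph mutation lies in the gene of the red cell membrane protein alpha spectrin. Livers were digested with collagenase, non-parenchymal cells were pelleted and cells were captured on anti-F4/80 beads, so that endothelial and stellate cells here are those that came along with a macrophage preparation. The barcodes carry the suffix 1 or 2, and no label or file used here ties a suffix to a genotype. All values therefore belong to library 1 or library 2, a difference between them cannot be read as a genotype effect, and with 1 library each there is no replicate, no test and no p-value. Intervals are 95% exact intervals and cover counting error only.

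Wnt ligands bind a Frizzled receptor together with an Lrp co-receptor on the receiving cell, which keeps beta-catenin from being broken down and turns on its target genes. R-spondins bind Lgr receptors and spare Frizzled from removal by the ubiquitin ligases Znrf3 and Rnf43, so that the same amount of Wnt gives more signal. In mouse liver, Wnt2, Wnt9b and Rspo3 from the endothelium around the central vein are known to maintain the pericentral zone of hepatocytes. Hgf is the ligand of the receptor Met, drives hepatocyte growth, and is known to come from stellate and endothelial cells.

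Library 1 held 11401694 fragments, with 637 called cells, a median of 13220 fragments per cell and 72.1% of a cell's fragments in peaks at the median. Library 2 held 21656110 fragments, with 575 called cells, a median of 13186 and 53.7% in peaks. Fragments of single cells piled up in places. Where 1 cell had 10 or more fragments in a 20 kb stretch, and 10 or more times what the rest of its library predicted, this was called a pile-up. In library 1 they took up 0.681% of the fragments of kept cells, and in library 2 12.2%. No barcode was called a cell in both libraries. Clusters were named from marker genes, none of which is among the 8. Endothelial-like cells numbered 120 in library 1 and 122 in library 2, stellate-like cells (markers of stellate cells and fibroblasts) 66 and 23, and Kupffer-like cells 327 and 223. All 15 endothelial markers had fragments in the endothelial-like and also in the Kupffer-like cells of each library. They summed to 2901 fragments per 1000000 of the class (CPM) in endothelial-like cells of library 1 and 1607 in those of library 2. In Kupffer-like cells they summed to 688 and 549 CPM. The clusters were named from these same marker lists, so such sums describe the names and cannot support them. The 15 stellate markers summed to 1729 and 1313 CPM in stellate-like cells, and the 12 Kupffer markers to 1083 and 722 CPM in Kupffer-like cells, beside 133 and 171 CPM in endothelial-like cells. The Kupffer-like cells of library 2 lay almost all in 1 cluster, 217 of 223, which held none of library 1 and was led by Marco and Hmox1. Those of library 1 lay in 2 other clusters, of 208 and 119 cells of that library. A cluster of 19 and 111 cells stayed unnamed, and 25 cells of library 1 and 1 of library 2 were hepatocyte-like.

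Start-site sequences of the ligand genes Wnt2 and Hgf and of the receptor Fzd4 are shown because the cell classes differ there or nearby in the fragments they hold. They are RefSeq promoters of GRCm38.p6, 250 bases before to 50 bases after the start, written 5′ to 3′. Capitals mark matches on either strand to the SP motif GGGCGG and the ETS motif GGAAGT. Of 32851 RefSeq promoters of this length, 35.7% held the SP letters and 23.8% the ETS letters. Wnt2 lies on the minus strand, with its promoter at chr6:18030396-18030695. Hgf has a pair of starts on the plus strand, with promoters at chr5:16553245-16553544 and chr5:16553651-16553950. Fzd4 lies on the plus strand, with its promoter at chr7:89404116-89404415.
Wnt2: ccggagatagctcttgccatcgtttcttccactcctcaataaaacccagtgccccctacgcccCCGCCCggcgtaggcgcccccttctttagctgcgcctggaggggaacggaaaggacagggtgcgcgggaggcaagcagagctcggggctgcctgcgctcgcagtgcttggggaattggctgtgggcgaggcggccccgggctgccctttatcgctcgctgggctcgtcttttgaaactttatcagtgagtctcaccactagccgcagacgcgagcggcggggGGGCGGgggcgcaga
Hgf start 1: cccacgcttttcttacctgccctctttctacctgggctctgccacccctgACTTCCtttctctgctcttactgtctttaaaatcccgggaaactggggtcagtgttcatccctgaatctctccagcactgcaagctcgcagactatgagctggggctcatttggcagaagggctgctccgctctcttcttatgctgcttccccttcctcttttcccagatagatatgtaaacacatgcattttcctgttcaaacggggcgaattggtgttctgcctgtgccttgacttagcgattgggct
Hgf start 2: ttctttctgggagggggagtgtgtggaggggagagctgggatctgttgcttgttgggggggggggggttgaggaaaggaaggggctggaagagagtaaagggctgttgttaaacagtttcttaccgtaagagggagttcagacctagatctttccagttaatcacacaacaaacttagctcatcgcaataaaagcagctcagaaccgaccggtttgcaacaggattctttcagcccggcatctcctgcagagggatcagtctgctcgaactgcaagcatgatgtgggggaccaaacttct
Fzd4: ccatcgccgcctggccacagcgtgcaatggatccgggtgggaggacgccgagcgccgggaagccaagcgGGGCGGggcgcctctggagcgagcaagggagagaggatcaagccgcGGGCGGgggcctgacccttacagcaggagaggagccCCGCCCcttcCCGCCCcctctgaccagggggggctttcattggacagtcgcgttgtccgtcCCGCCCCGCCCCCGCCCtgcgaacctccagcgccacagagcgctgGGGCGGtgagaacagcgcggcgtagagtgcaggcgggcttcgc
The Wnt2 window held 2 SP matches and the Fzd4 window 8. The first Hgf window held 1 ETS match and the second held no match to either. Promoters of Wnt9b, Rspo1 and Fzd1 were searched too: Wnt9b held 3 SP matches and Rspo1 none of the motifs searched. Fzd1 held 1 ETS match and 1 match to the TCF motif CTTTGA, which 16.0% of promoters hold. It also held 1 match to the TATA box motif TATAAA, in 13.6% of promoters, and 2 to the GATA factor motif AGATAA, in 11.2%. The E-box letters CANNTG, which 72.3% of promoters hold, were found in Wnt9b, the first Hgf window and Fzd1. Such matches describe the letters only. Rspo3 and Lrp5 are given without a promoter, and their positions are measured from the low-coordinate end of the gene.

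Wnt2, a ligand of beta-catenin signalling, had its highest level in endothelial-like cells of library 1, while in library 2 endothelial-like and stellate-like cells overlapped and both lay above Kupffer-like cells. In library 1 its window held 141 CPM in endothelial-like cells (interval 122 to 161), 15.4 in stellate-like cells (7.95 to 26.9) and 4.99 in Kupffer-like cells (3.32 to 7.22). In library 2 it held 40.2 CPM in endothelial-like cells (31.8 to 50.2), 35.6 in stellate-like cells (21.8 to 55.0) and 11.2 in Kupffer-like cells (7.90 to 15.5). The endothelial interval lay above the other classes' in library 1, whereas in library 2 it overlapped that of the 23 stellate-like cells. That stellate level rested on 20 fragments. Of these 23 cells, 6 were marked as doublets (barcodes that may hold more than 1 cell), against 4 of 66 in library 1. They were kept in the stellate levels, and their part in them was not tested. A single endothelial-like cell of library 2 gave 16 of the 78 fragments, and without pile-ups the library 2 level was 36.7 CPM in endothelial-like, 38.8 in stellate-like and 8.91 in Kupffer-like cells. Ratios between classes are given on the log2 scale relative to the median gene, and a gene was called at 2-fold or more, given at least 50 fragments in the pair of classes. For endothelial-like over Kupffer-like cells, Wnt2 stood at 4.77 in library 1 (4.22 to 5.42) and 1.81 in library 2 (1.24 to 2.43). Over stellate-like cells it stood at 3.02 in library 1 (2.24 to 4.05) and 0.03 in library 2 (-0.67 to 0.84), that of library 2 being -0.24 with pile-ups left out. After each cell was thinned to 5000 fragments, 43 of 96 endothelial-like cells (44.8%) and 11 of 297 Kupffer-like cells (3.70%) of library 1 held a Wnt2 fragment. In library 2 this was 18 of 113 (15.9%) and 8 of 203 (3.94%). Without thinning, the shares in library 1 were 60.0% of endothelial-like and 6.12% of Kupffer-like cells, at median depths of 10601 and 16063 fragments.

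Wnt9b, the other pericentral Wnt, was highest in endothelial-like cells of library 1, while in library 2 no class stood above the others. It held 53.4 CPM in endothelial-like cells of library 1 (42.3 to 66.5), 17.9 in stellate-like cells (9.81 to 30.1) and 12.0 in Kupffer-like cells (9.26 to 15.2). Library 2 gave 14.4 CPM in endothelial-like cells (9.59 to 20.8), 16.0 in stellate-like cells (7.33 to 30.4) and 18.5 in Kupffer-like cells (14.2 to 23.8). The 3 intervals of library 2 overlapped, and 18 of its 61 Kupffer fragments came from 1 cell. With pile-ups left out, the Wnt9b log2 ratio of endothelial-like over Kupffer-like cells was 0.07 in library 2. With pile-ups kept, the log2 ratio of endothelial-like over Kupffer-like cells was 2.14 in library 1 (1.65 to 2.63) and -0.36 in library 2 (-1.08 to 0.29), the second of which had either sign within its interval. The window overlaps that of the neighbouring Wnt gene Wnt3, so fragments at its high-coordinate end cannot be assigned to 1 of them.

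Rspo3, the R-spondin of the central vein, had its highest level in stellate-like cells of both libraries. It held 16.2 CPM in endothelial-like cells of library 1 (10.4 to 24.1), 135 in stellate-like cells (110 to 163) and 9.81 in Kupffer-like cells (7.39 to 12.8). Library 2 gave 38.1 CPM in endothelial-like cells (29.9 to 47.9), 60.6 in stellate-like cells (42.0 to 84.7) and 16.1 in Kupffer-like cells (12.0 to 21.0). The stellate interval lay above both others in library 1 and overlapped the endothelial one in library 2, where 53 of the 74 endothelial fragments came from 1 cell. With pile-ups left out, library 2 held 12.4 CPM in endothelial-like, 66.0 in stellate-like and 18.2 in Kupffer-like cells. Rspo3 then stood at -2.53 in endothelial-like over stellate-like cells of library 2, against -0.80 with pile-ups. Stellate-like over Kupffer-like cells, the log2 ratio was 3.85 in library 1 (3.38 to 4.36) and 2.03 in library 2 (1.35 to 2.67). The endothelial over Kupffer ratio of library 2 turned to -0.57, from 21 endothelial fragments, against 1.22 with pile-ups. In library 1 that ratio was 0.72 (-0.05 to 1.42). Thinned to 5000 fragments, 5 of 96 endothelial-like cells (5.21%), 21 of 50 stellate-like cells (42.0%) and 12 of 297 Kupffer-like cells (4.04%) of library 1 held an Rspo3 fragment.

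Rspo1, a related R-spondin, had few fragments in every class. In library 1 it held 4.73 CPM in endothelial-like cells (1.90 to 9.75, from 7 fragments), 6.41 in stellate-like cells (from 5) and 11.4 in Kupffer-like cells (8.79 to 14.6, from 64). In library 2 the levels were 7.73 CPM in endothelial-like cells (4.33 to 12.7), 7.13 in stellate-like cells (1.94 to 18.2) and 10.0 in Kupffer-like cells (6.89 to 14.1). The endothelial and Kupffer intervals overlapped in each library. Outside these classes the level was 23.3 CPM (13.8 to 36.8) in library 1 and 29.6 (22.3 to 38.6) in library 2 in a cluster that stayed unnamed, of 52 and 82 cells, whose leading genes included Flt3, Napsa and Bcl11a.

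Hgf had its highest level in stellate-like cells of both libraries, and the intervals of the other classes overlapped each other. It held 47.3 CPM in endothelial-like cells of library 1 (36.9 to 59.8), 109 in stellate-like cells (87.0 to 135) and 43.9 in Kupffer-like cells (38.6 to 49.7). Library 2 gave 39.2 CPM in endothelial-like cells (30.8 to 49.0), 82.0 in stellate-like cells (60.0 to 109) and 51.6 in Kupffer-like cells (44.1 to 59.9). The stellate intervals did not overlap the others in either library. Stellate-like over Kupffer-like cells, the log2 ratio was 1.40 in library 1 (1.02 to 1.76) and 0.78 in library 2 (0.27 to 1.25). Endothelial-like over stellate-like cells it was -1.32 in library 1 (-1.80 to -0.85) and -1.19 in library 2 (-1.73 to -0.62). Endothelial-like over Kupffer-like cells it was 0.10 in library 1 (-0.32 to 0.48) and -0.41 in library 2 (-0.83 to -0.02).

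Fzd4, a Frizzled that also serves the vascular ligand norrin, was the receptor highest in endothelial-like cells of both libraries. It held 118 CPM in endothelial-like cells of library 1 (101 to 136), 74.3 in stellate-like cells (56.4 to 96.1) and 28.9 in Kupffer-like cells (24.6 to 33.7). In library 2 there were 101 CPM in endothelial-like cells (87.3 to 116), 55.2 in stellate-like cells (37.5 to 78.4) and 34.0 in Kupffer-like cells (28.0 to 40.9). Its log2 ratio of endothelial-like over Kupffer-like cells was 2.00 in library 1 (1.69 to 2.32) and 1.55 in library 2 (1.21 to 1.90). The gene Tmem135 has its high-coordinate end at position 89404703 of chromosome 7, past the Fzd4 start at 89404366. Fragments at that start therefore lie in both genes.

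Fzd1, another Frizzled, was lowest in Kupffer-like cells of library 1, while in library 2 the intervals of all classes overlapped. It held 26.4 CPM in endothelial-like cells of library 1 (18.7 to 36.0), 48.7 in stellate-like cells (34.5 to 66.9) and 10.9 in Kupffer-like cells (8.32 to 14.0). Library 2 gave 25.8 CPM in endothelial-like cells (19.1 to 34.0), 21.4 in stellate-like cells (11.0 to 37.3) and 31.3 in Kupffer-like cells (25.5 to 37.9). The Kupffer interval lay below the others in library 1 and overlapped both in library 2. For endothelial-like over Kupffer-like cells, the log2 ratio was 1.26 in library 1 (0.64 to 1.86) and -0.29 in library 2 (-0.81 to 0.20).

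Lrp5, a co-receptor that binds Wnt with Frizzled, had the widest window and fragments in all classes. It held 230 CPM in endothelial-like cells of library 1 (206 to 255), 126 in stellate-like cells (102 to 153) and 137 in Kupffer-like cells (128 to 147). In library 2 the levels were 79.3 CPM in endothelial-like cells (67.3 to 92.9), 85.5 in stellate-like cells (63.1 to 113) and 105 in Kupffer-like cells (94.2 to 117). Endothelial-like over Kupffer-like cells, the log2 ratio was 0.73 in library 1 (0.54 to 0.91) and -0.42 in library 2 (-0.71 to -0.14). The endothelial interval lay above both others in library 1. In library 2 it lay below the Kupffer interval and overlapped the stellate one.

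**Figure D1:**
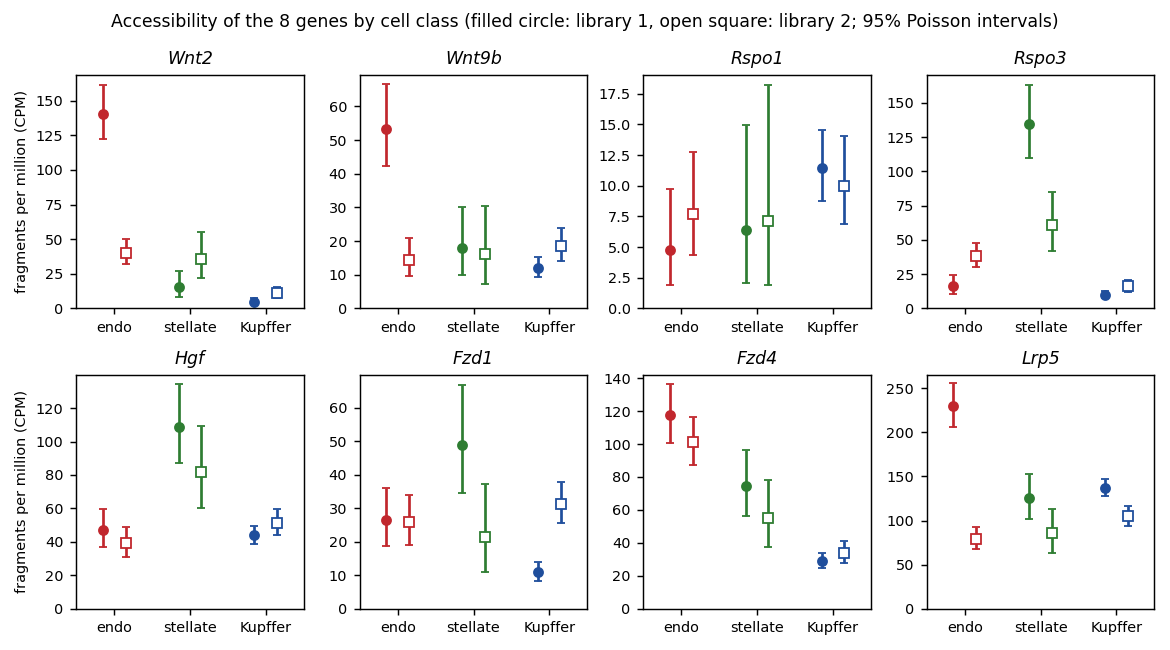
Fragments per 1000000 (CPM) in the window of each of the 8 genes (vertical axis, own scale per gene) in endothelial-like (endo), stellate-like and Kupffer-like cells, with 95% Poisson intervals; filled circles are library 1 and open squares library 2. Wnt2 stands at 141 CPM in endothelial-like cells of library 1 and 40.2 in those of library 2, and Hgf is highest in stellate-like cells of both.

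Endothelial-like over Kupffer-like cells, 4 of 8 genes were called higher in library 1 (Wnt2, Wnt9b, Fzd1 and Fzd4), against 9.48% of all genes tested, and 1 was called lower (Rspo1), against 12.8%. In library 2, 3 of the 7 genes past the minimum were called higher (Wnt2, Rspo3 and Fzd4), against 10.6%, and 0 lower, against 10.7%. Both libraries called Wnt2 and Fzd4 higher, 2 of the 7 past the minimum in both, against 5.4% of all genes, and 0 lower, against 6.38%. The median of the tested genes among the 8 was 0.99 in library 1 and -0.29 in library 2, where the median over all genes is 0 by construction. Stellate-like over Kupffer-like cells, library 1 called Rspo3, Hgf, Fzd1 and Fzd4 higher, 4 of 7 against 11.5%, and library 2 called Wnt2 and Rspo3, 2 of 7 against 12.5%. Rspo3 was the 1 gene called higher in both, against 6.41%, and 0 were called lower in both, against 5.81%. In single libraries 0 were lower, against 13.1% in library 1 and 11.8% in library 2. Endothelial-like over stellate-like cells, library 1 called 2 of 7 higher (Wnt2 and Wnt9b), against 7.51%, and 3 lower (Rspo3, Hgf and Fzd1), against 8.32%. Library 2 called 1 of 6 lower, Hgf, against 9.43%, and 0 higher, against 9.14%. Hgf was the 1 gene lower in both, against 4.37%, and 0 were higher in both, against 3.0%. Some of these calls depended on the processing. Rspo3 in endothelial-like over Kupffer-like cells of library 2 lost its call in 5 of 13 alternatives (-0.57 to 1.79), among them leaving out pile-ups. Of its 74 endothelial fragments, 53 came from 1 cell. Fzd1 in endothelial-like over stellate-like cells of library 1, at -1.01, lost its call in 8 of 16 alternatives (-1.24 to -0.88), among them gene bodies without flanks, insertions and no minimum of fragments. Rspo1 in endothelial-like over Kupffer-like cells of library 1 rested on 7 endothelial fragments and lost its call in 4 of 16 (-1.41 to -0.73). Those were 3000 fragments in peaks as the minimum, classes from marker fragments, thinning, and clustering with pile-ups kept. Wnt2 in stellate-like over Kupffer-like cells of library 2 lost its call in 3 of 11 (1.40 to 2.23), among them leaving out pile-ups, where it had fewer than 50 fragments. Hgf in endothelial-like over stellate-like cells of library 2 lost its call in 2 of 14 (-1.67 to -0.93), classes from marker fragments and thinning. These counts describe the 8 genes and support nothing further.

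**Figure D2:**
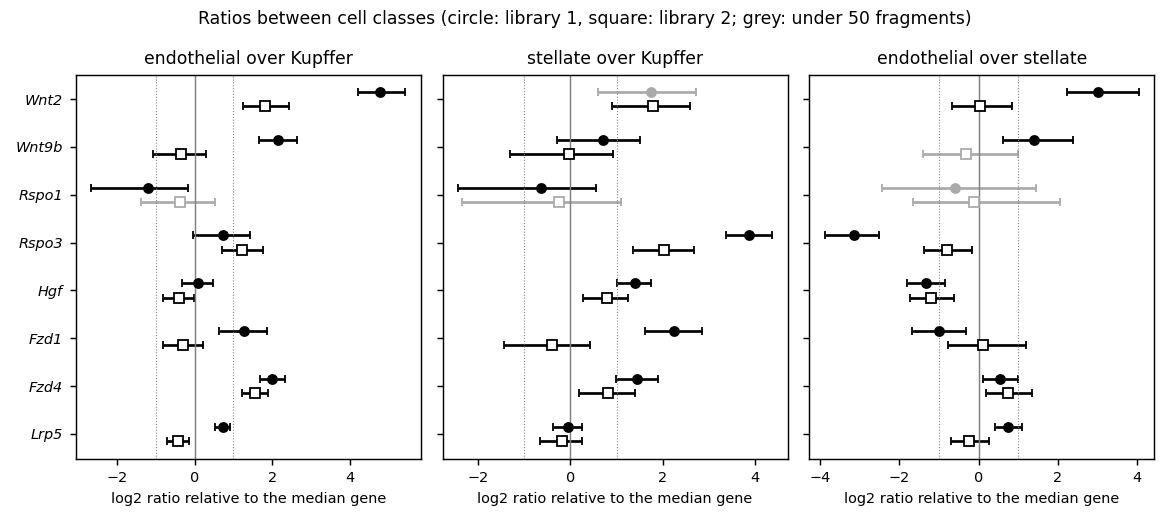
Log2 ratio between cell classes relative to the median gene (horizontal axis), with 95% intervals, for the 8 genes (vertical axis) in 3 panels; filled circles are library 1, open squares library 2, grey marks genes under 50 fragments, and dotted lines mark 2-fold. Wnt2 and Fzd4 lie past 2-fold in endothelial-like over Kupffer-like cells of both libraries, Rspo3 in stellate-like over Kupffer-like cells, and Hgf on the lower side in endothelial-like over stellate-like cells.

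Levels were set against each other per kb of window. In endothelial-like cells Fzd4 led with 12.1 CPM per kb in library 1 and 10.4 in library 2, above 99.5% and 99.4% of all genes. Fzd1 followed with 3.15 CPM per kb in library 1 and 3.07 in library 2. Wnt2 had 2.74 CPM per kb in library 1, above 85.5% of genes, and 0.783 in library 2, above 59.6%. Lrp5 had 2.17 and 0.750 CPM per kb, Wnt9b 1.03 and 0.278, and Hgf 0.676 and 0.560, in library 1 and library 2. The median gene stood at 0.581 CPM per kb in library 1 and 0.542 in library 2. Rspo1 and Rspo3 lay below it in endothelial-like cells of both, at 0.177 and 0.187 CPM per kb in library 1 and 0.289 and 0.439 in library 2. In stellate-like cells Rspo3 had 1.55 CPM per kb in library 1 and 0.698 in library 2, and Hgf had 1.56 and 1.17. The windows of Fzd1 (8.38 kb) and Fzd4 (9.74 kb) are short, so the start site fills a larger share of them than of the 106 kb window of Lrp5.

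Along Wnt2 the endothelial fragments gathered in a few tiles, picked for description after their values were seen, as were all tiles named here. The fullest was chr6:18031001-18032000, centred 1.06 kb upstream of the start used here and still inside the annotated gene. It held 83 fragments in 46 endothelial-like cells of library 1 and 20 in 16 of library 2, 3 and 4 fragments in stellate-like cells, and 5 and 3 in Kupffer-like cells. The tile with the start held 26 and 8 endothelial fragments and 1 in each of the other classes and libraries. A tile within the gene body 38.9 kb downstream of the start, chr6:17991001-17992000, held 45 and 18 endothelial fragments (11 in library 2 with pile-ups left out), 5 and 10 stellate fragments, and 2 and 1 Kupffer fragments. The 300-base promoter printed above held 19 endothelial fragments in library 1 and 5 in library 2, and 1 Kupffer fragment in each. An open tile was one with at least 5 fragments and at least 3 times the mean tile of its class: Wnt2 had 3 tiles open in endothelial-like cells of both libraries, 1 of them open in stellate-like cells of both, and 0 in Kupffer-like cells.

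Wnt9b held 26 endothelial fragments of library 1 in the tile chr11:103729001-103730000, 20.3 kb downstream of the start, and 21 in chr11:103750001-103751000, beside the start. In library 2 these tiles held 3 and 2 endothelial fragments. Stellate-like cells held 11 fragments of library 1 and 2 of library 2 in the first tile, and 0 in the second. No Wnt9b tile was open in both libraries in any of the 3 classes.

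Rspo3 had 3 tiles open in stellate-like cells of both libraries and 0 in the other classes. The tile chr10:29460001-29461000, 7.39 kb from the low-coordinate end, held 2 endothelial, 15 stellate and 2 Kupffer fragments in library 1. In library 2 it held 0 endothelial, 5 stellate and 2 Kupffer fragments. The tile chr10:29535001-29536000 at the high-coordinate end held 13 stellate fragments in library 1 and 5 in library 2, beside 3 and 1 endothelial and 3 and 2 Kupffer fragments. Rspo1 had 2 tiles open in Kupffer-like cells of both libraries, and the libraries differed in which was fuller. The tile centred 4.07 kb downstream of the start held 21 Kupffer fragments of library 1 and 5 of library 2. The tile centred 11.1 kb downstream held 12 and 9.

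Hgf showed different positions in different classes. The tile chr5:16552001-16553000, centred 0.99 kb upstream of the first start, held 103 Kupffer fragments in library 1 and 91 in library 2. It held 1 and 13 endothelial and 4 and 3 stellate fragments. The next tile, with both starts, held 24 and 18 endothelial, 18 and 15 stellate, and 70 and 36 Kupffer fragments. Within it, the window of the first start printed above held 8 and 3 endothelial, 5 and 4 stellate and 52 and 28 Kupffer fragments in library 1 and library 2. The window of the second start held 14 and 12 endothelial, 14 and 9 stellate and 15 and 6 Kupffer fragments. Kupffer-like cells thus held more fragments at the first start, and endothelial-like and stellate-like cells more at the second, in both libraries. With the flanks left out, the log2 ratio of endothelial-like over Kupffer-like cells was 1.15 in library 1 and 0.69 in library 2, against 0.10 and -0.41 with them. For stellate-like over Kupffer-like cells it was 2.43 and 2.04 without the flanks.

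**Figure D3:**
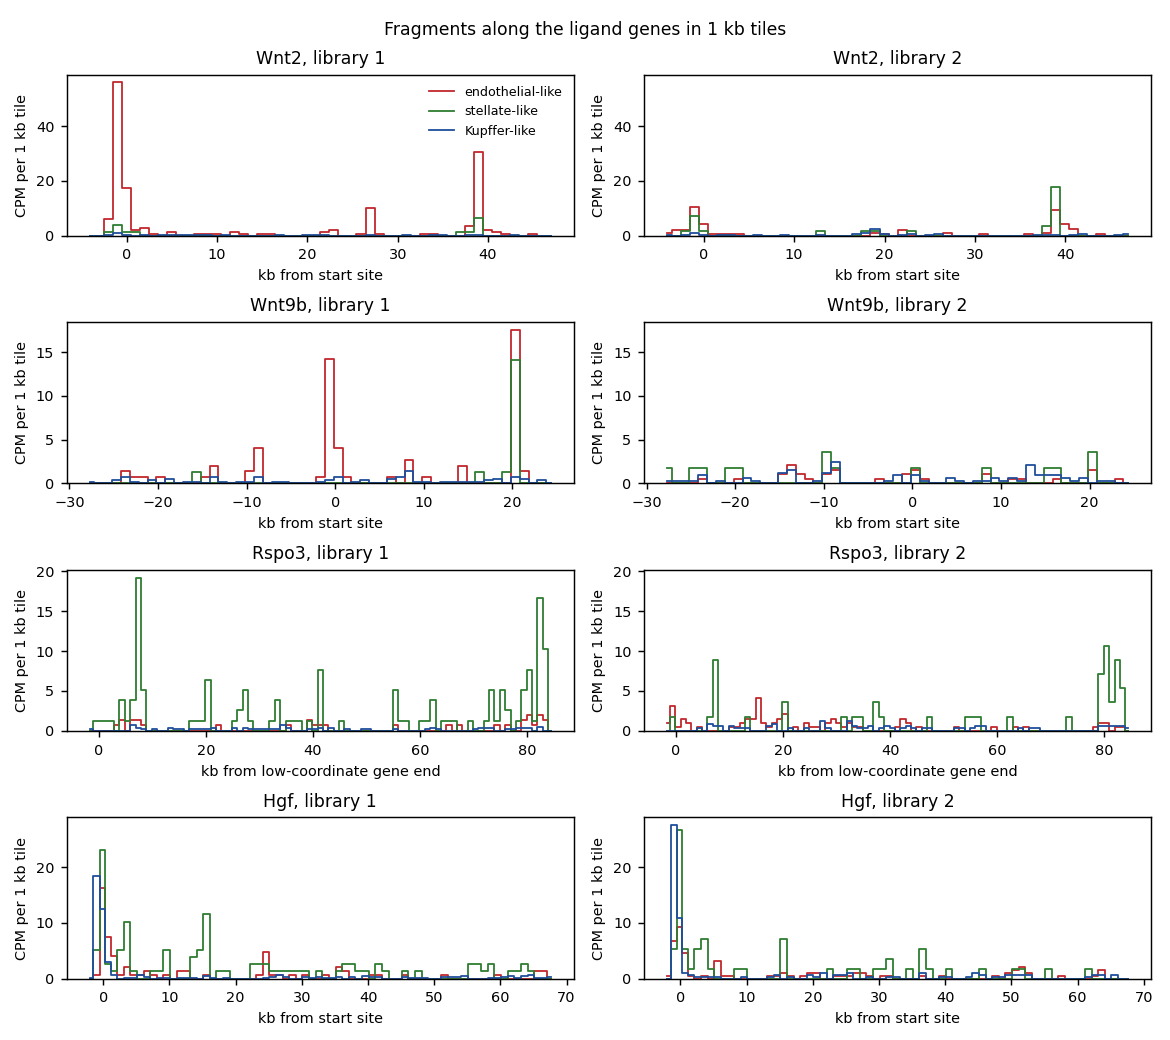
Fragments per 1000000 (CPM) in 1 kb tiles (vertical axis) along Wnt2, Wnt9b, Rspo3 and Hgf, in library 1 (left) and library 2 (right); the horizontal axis gives kb downstream of the start site, or, for Rspo3, kb from the low-coordinate gene end. The red endothelial-like line peaks beside the Wnt2 start, the green stellate-like line at both ends of Rspo3, and the blue Kupffer-like line just upstream of the first Hgf start.

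Fzd4 carried a tile 3.13 kb downstream of its start, chr7:89407001-89408000, with 42 fragments in 29 endothelial-like cells of library 1 and 27 in 18 of library 2. It held 0 stellate and 0 Kupffer fragments in library 1, and 1 stellate and 0 Kupffer fragments in library 2. The exact interval of its log2 ratio of endothelial-like over Kupffer-like cells began at 5.35 in library 1 and at 3.52 in library 2. The tile of the start itself held fragments in every class: 53 and 77 endothelial, 36 and 20 stellate, and 99 and 71 Kupffer fragments in library 1 and library 2. Over Kupffer-like cells its endothelial log2 ratio was 1.01 in library 1 and 0.86 in library 2. In the promoter window printed above the endothelial level was 29.1 CPM in library 1 and 36.6 in library 2, against 16.6 and 20.3 CPM in Kupffer-like cells.

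Fzd1 fragments lay at the start in every class. The tile with the start held 29 and 32 endothelial, 24 and 8 stellate, and 48 and 82 Kupffer fragments in library 1 and library 2. At Lrp5 the classes differed by position within the window. The tile chr19:3687001-3688000, in the flank beyond the high-coordinate end, held 33 and 14 endothelial, 6 and 5 stellate, and 288 and 189 Kupffer fragments. The body tile chr19:3645001-3646000 held 43 and 20 endothelial, 0 and 0 stellate, and 7 and 2 Kupffer fragments, and the tile after it 40 and 9 endothelial, 1 and 0 stellate, and 4 and 2 Kupffer fragments. In the first of these the endothelial over Kupffer log2 ratio was 4.44 in library 1 (3.36 to 5.92) and 3.78 in library 2 (2.03 to 7.21). Counted over the gene body without the flanks, Lrp5 stood at 1.54 in library 1 and 0.74 in library 2, the same sign in both libraries, against 0.73 and -0.42 with the flanks.

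**Figure D4:**
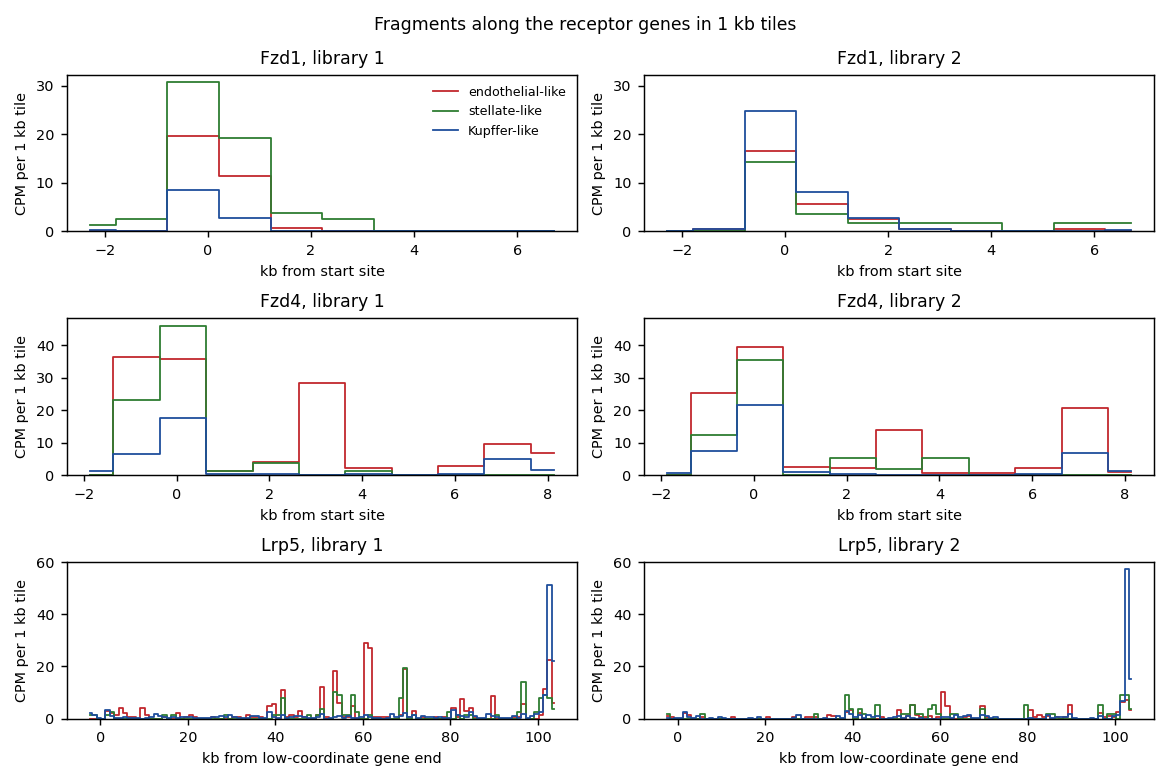
Fragments per 1000000 (CPM) in 1 kb tiles (vertical axis) along Fzd1, Fzd4 and Lrp5, in library 1 (left) and library 2 (right); the horizontal axis gives kb downstream of the start site, or, for Lrp5, kb from the low-coordinate gene end. The Fzd4 tile 3.13 kb downstream is endothelial-like (red), and the high-coordinate end of the Lrp5 window is Kupffer-like (blue) in both libraries.

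Library 1 over library 2 within endothelial-like cells, Wnt2, Wnt9b and Lrp5 were called higher, 3 of the 7 genes past the minimum, against 2.55% of all genes. Wnt2 stood at a log2 ratio of 1.59 (1.22 to 1.99), Wnt9b at 1.67 (1.04 to 2.36) and Lrp5 at 1.33 (1.05 to 1.61). Fzd4 stood at 0.01 (-0.29 to 0.32), Hgf at 0.07 (-0.42 to 0.55) and Fzd1 at -0.17 (-0.82 to 0.46). Rspo3 was called lower at -1.42 (-2.17 to -0.76), against 7.47% of all genes, and turned to 0.30 with pile-ups left out. Of the 15 endothelial markers, 3 were called higher and 0 lower, with a median of 0.61 and values between -0.37 (Lyve1) and 1.55 (Ehd3). Cdh5 stood at -0.25 (-0.50 to -0.01). Their part in the result was not tested. Over the 1 kb tiles, the one upstream of the Wnt2 start stood at 2.21 (1.52 to 3.02) and the one 38.9 kb downstream at 1.48 (0.69 to 2.38, pile-ups kept). At Fzd4 the tile 3.13 kb downstream stood at 0.81 (0.09 to 1.58), the start tile at -0.35 (-0.89 to 0.17) and the tile 7.13 kb downstream at -1.30 (-2.32 to -0.42). With pile-ups left out, Wnt2 stood at 1.85, Wnt9b at 1.59 and Lrp5 at 1.25.

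Within Kupffer-like cells, Fzd1 (-1.76, -2.24 to -1.29) and Wnt2 (-1.40, -2.17 to -0.66) were called lower in library 1, 2 of 8 genes, against 8.04% of all genes, and 0 were called higher, against 3.36%. Rspo3 stood at -0.95 (-1.52 to -0.38), short of 2-fold, and at -1.03, past it, with pile-ups left out. Fzd1 held 61 fragments in library 1 and 103 in library 2, and no cell gave more than 5 of them. Wnt2 held 28 and 37 fragments, 11 of the library 2 fragments from 1 cell, and stood at -0.98 with pile-ups left out, short of 2-fold. Kupffer markers lay between -1.80 (Marco) and 1.34 (Cd163), with a median of 0.43, and the cells of the libraries sat in different clusters. Within stellate-like cells none of the 5 genes past the minimum was called, against 3.14% of all genes higher and 5.31% lower. The nearest to 2-fold were Fzd1 at 0.99 (0.06 to 2.10) and Rspo3 at 0.98 (0.43 to 1.60).

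**Figure D5:**
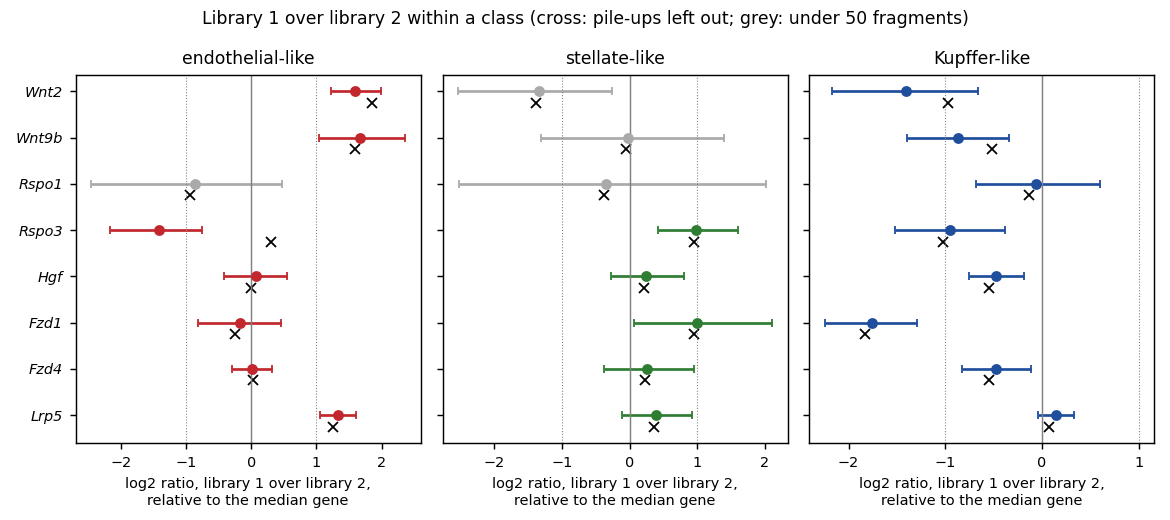
Log2 ratio of library 1 over library 2 relative to the median gene (horizontal axis), with 95% intervals, for the 8 genes within endothelial-like, stellate-like and Kupffer-like cells; crosses give the value with pile-ups left out, grey marks genes under 50 fragments and dotted lines mark 2-fold. In endothelial-like cells Wnt2, Wnt9b and Lrp5 lie past 2-fold, and Rspo3 stands at -1.42 with pile-ups and at 0.30 without them.

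Other genes of these pathways were followed through lists, for endothelial-like over Kupffer-like cells read against the same 5.4% higher and 6.38% lower over all genes. Endothelial-like over Kupffer-like cells, in both libraries, 0 of the 7 other Wnt ligands past the minimum were called in either direction. Of 9 other receptors and co-receptors, 3 were called higher and 1 lower. Tspan12, a tetraspanin that helps norrin signal through Fzd4, stood at 3.02 in library 1 and 1.97 in library 2, and the Frizzled gene Fzd7 was the lowest at -1.64 and -1.30. Fzd8 stood at 2.55 and 1.30, and Ror1, a receptor of non-canonical Wnt signals, at 1.19 and 1.33, the second of which fell short at 0.43 with pile-ups left out. Of 6 R-spondin genes and receptors, 0 were called higher and 1 lower in both: Znrf3 at -1.34 and -1.02. Lgr5 was the highest of that list, at 1.87 in library 1 and 0.10 in library 2. The ligand list's highest, Wnt11, stood at -0.16 and 2.21, the second at 0.51 with pile-ups left out, and its lowest, Wnt6, at -0.64 and -0.74.

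Among 13 transducers and target genes, 3 were called higher and 1 lower in both libraries. Axin2, a target gene that feeds back on the pathway, stood at 2.32 in library 1 and 3.25 in library 2, or 1.76 in library 2 with pile-ups left out. Nkd1, another feedback target, stood at 3.33 and 1.87, the transcription factor gene Tcf7 at 1.70 in library 2, past 2-fold in both, and the nuclear effector Tcf7l2 at -1.20 and -1.22. Of 7 secreted inhibitors, Dkk3 was called higher at 3.85 and 2.10 and Dkk2 lower at -2.14 and -1.83. On the Hgf axis 1 of 7 genes was called higher in both, Spint2, an inhibitor of the proteases that activate Hgf, at 1.49 and 1.99. The lowest was Plau, a protease, at -0.69 and -1.42. Of the genes needed for Wnt secretion, Wls stood at 0.35 and 0.35 and Porcn at -0.27 and 0.11, neither called.

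Stellate-like over Kupffer-like cells, 2 of 8 other receptors, 1 of 6 R-spondin genes and receptors, 1 of 2 secretion genes, 2 of 5 inhibitors and 1 of 11 transducers and targets were called higher in both libraries, against 6.41% of all genes. Called lower in both, against 5.81% of all genes, were 1 inhibitor, Dkk2, and 1 of 4 genes of the Hgf axis, Plau, while 0 of 3 other ligands were called either way. Those higher included Frzb, a secreted Wnt inhibitor, at 3.63 in library 1 and 3.65 in library 2. Nkd1 stood at 4.49 and 3.20, Dkk3 at 3.56 and 2.91, Ror1 at 2.37 and 2.02 and the receptor kinase Ryk at 1.70 and 1.61. Wls was called at 1.31 and 1.58, the second of which was 0.87 with pile-ups left out, and Lgr5 at 1.41 and 1.21, the second 0.25. Fzd8, Ror1, Tcf7, Nkd1, Frzb, Ryk and the stellate values of Lgr5, Wls and Dkk3 were named after their values were seen. The log2 distance of each gene's profile over 3 classes and 2 libraries picked the genes most like the 8 among the 15111 searched (15110 for genes with an overlapping neighbour). For Wnt2 they were Cxxc4 at a root mean square distance of 0.386 and Pla2g2c at 0.452, for Rspo3 Dzip1l at 0.220 and Irs1 at 0.242, and for Fzd4 Morc4 at 0.118 and Jcad at 0.129. For Hgf they were Plxna1 at 0.0993 and Dlg3 at 0.0999, for Fzd1 Cdh11 at 0.152 and Ajap1 at 0.199, and for Wnt9b Lancl3 at 0.169 and Hvcn1 at 0.172. For Rspo1 they were Ky at 0.0579 and Prxl2a at 0.0994, and for Lrp5 1810009A15Rik at 0.0501 and Lbhd1 at 0.105. The 6 points of each profile share their cells and libraries.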

How the data were processed

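The deposited table of unique fragments holds both libraries, told apart by barcode suffix, with whole-number counts of read pairs per fragment that the authors did not normalize. A deposited per-barcode table gives counts of fragments, fragments in peaks and the authors' cell calls. Signac 0.2.4 and Seurat under R 3.6.1, Cell Ranger ATAC 1.2.0 and the build GRCm38.p5 are named, per the submitters' processing notes; how cells were called is not stated there. Library 1 held 116789 barcodes and library 2 180316, and 83.2% and 56.2% of their fragments lay in called cells.

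Each fragment was counted once in every gene window it overlapped, with genes of RefSeq GRCm38.p6, which shares primary chromosome coordinates with p5. Cells were kept with 1000 or more peak fragments, a peak share of 15% or more and a blacklist share of 5% or less, which left 609 of 637 and 562 of 575. Fragments outside pile-ups were counted in 5 kb bins seen in at least 10 cells, with the 90 bins at the 8 genes left out. Bins were weighted by TF-IDF and reduced by truncated SVD (scikit-learn 1.9.0, 30 components, the first dropped). A graph of 20 neighbours was clustered with leidenalg 0.10.2 at resolution 0.5, giving 8 clusters. A cluster took the name of the marker list with the highest mean log2 level over all cells (prior 5 CPM) if that was at least 0.25, led by at least 0.2 and had at least 3 markers found in 10% of cells. An overlap rule marked 68 and 85 cells as doublets at an adjusted 0.01, and they were kept.

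This clustering was the third version tried. The first scaled the components and the second did not, and both kept pile-ups and named clusters with a prior of 1 CPM. They named 6 and 17 cells of library 2 as Kupffer-like, against 223 in the version used, and 52 and 53 as endothelial-like, against 122. The third was picked from clusters and markers after seeing the data. It was also named with a prior of 1 CPM before the prior of 5 CPM was used, with the same numbers of cells per class. The other versions are among the alternatives. A minimum of 5 fragments was added to the open-tile rule after seeing the data.

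CPM values are fragments per 1000000 of a class in a library, with exact Poisson intervals. Ratios carry a prior of 0.5 fragments and exact conditional binomial intervals, relative to the median gene with at least 50 fragments (scipy 1.17.1). The scheme was run on simulated independent Poisson counts. These hold no pile-ups, so the run cannot show how the intervals or calls hold where fragments pile up in single cells. The genes, lists and markers were chosen with earlier results of these data known. All 8 genes are named; from each pathway list the text names the genes with the highest and the lowest endothelial over Kupffer ratio averaged over both libraries, and for each of the 8 the 2 genes with the nearest profile. There were 10 planned and 6 added alternatives.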

Additional observations from a re-analysis of the deposited data

Results flagged for a closer look

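Lrp5 went in opposite directions in the libraries: endothelial-like over Kupffer-like cells its log2 ratio was 0.73 in library 1 and -0.42 in library 2, with intervals that each lie on 1 side of 0. The difference between the libraries was not tested, since each is a single library. Over the gene body without flanks both values were positive, at 1.54 and 0.74.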

How the results depend on the processing

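Over 16 alternatives, Wnt2 kept its 2-fold call in endothelial-like over Kupffer-like cells of library 1 in all 16 (4.38 to 6.54). In library 2 it kept the call in 11 of the 13 that gave a value (1.21 to 2.52). Fzd4 did so in 16 of 16 (1.90 to 2.86) and 13 of 13 (1.33 to 1.71). In stellate-like over Kupffer-like cells, Rspo3 did so in 16 of 16 and 9 of 11. In endothelial-like cells, library 1 over library 2, Wnt2 (1.33 to 1.85) and Lrp5 (1.15 to 1.43) did so in 16 of 16 and Wnt9b in 15. Where Wnt2, Rspo3 and Wnt9b lost these calls, the ratio was still past 2-fold, but the gene had fewer than 50 fragments. Of single values, 974 stayed within their interval, 51 moved out of it, and 7 values called at 2-fold changed sign, all of Rspo3. For endothelial-like over Kupffer-like cells of library 2, Rspo3 was -0.57 with pile-ups left out, -0.55 without doublets and -0.51 with a peak share of 50% or more. Library 1 over library 2 in endothelial-like cells, it was 0.30, 0.19 and 0.51 in these and 0.19 with classes from marker fragments. Each of these settings leaves 21 or fewer of the 74 fragments, 53 of which came from 1 cell.

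Counts of genes called at 2-fold moved as follows. With classes from marker fragments, endothelial over Kupffer gave 1 higher, stellate over Kupffer 0 higher, endothelial over stellate 0 lower, and library 1 over library 2 in endothelial-like cells 0 lower. Thinning to 5000 fragments gave 1 higher in endothelial over Kupffer and 0 lower in endothelial over stellate. Between libraries it gave 0 lower in endothelial-like and 1 lower in Kupffer-like cells. Stellate over Kupffer gave 2 higher for gene bodies without flanks, for insertions and with no minimum. Leaving out pile-ups gave 2 lower in endothelial over stellate and 0 lower between libraries in endothelial-like cells. Leaving out doublets, or asking for a peak share of 50% or more, also gave 0 lower there, and the peak share gave 1 lower in Kupffer-like cells between libraries. Library 1 alone gave 4 higher and 1 lower in endothelial over Kupffer, 4 higher in stellate over Kupffer, and 2 higher and 3 lower in endothelial over stellate. Library 2 alone gave 2 higher in stellate over Kupffer. Some lost calls were still past 2-fold but had fewer than 50 fragments. With classes from marker fragments, Rspo3 in stellate over Kupffer of library 2 stood at 1.61. With thinning, Hgf in endothelial over stellate of library 2 stood at -1.67. With classes from marker fragments that Hgf ratio was -0.93 and itself fell short of 2-fold. The cause of the moves was not tested.

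Under 3000 fragments in peaks as the minimum, and in both earlier clusterings, library 2 had too few Kupffer-like cells for its comparisons. Without doublets, or with a peak share of 50% or more, it had under 20 stellate-like cells. Depth limits Rspo1 most, with 4 to 7 fragments in 3 of the 4 endothelial and stellate groups. No paired analysis was possible because the result comes from no test and each genotype has 1 library.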
